A study of Mus musculus with 9 samples.

Results

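The 10 genes described here encode junction proteins, transporters and surface proteins of brain endothelium, and were taken by symbol from the 55401 genes measured in peri-infarct mouse brain. They are Cldn5, Ocln, Tjp1 and Cdh5 of the cell junctions, Mfsd2a, Slc2a1 and Abcb1a of transport, Pecam1 and Vwf of general endothelium, and Plvap of fenestrated endothelium. RNA was sequenced from 9 libraries, 3 per group, all from wild-type mice at day 28 after surgery. Sham mice were operated without an infarct and PT mice had a photothrombotic stroke, an infarct made by light-induced clotting of small vessels. Both of these groups were given ultrapure water by gavage. The Pushen mice had the same infarct and were given Pushen, a licensed medicine, dissolved in ultrapure water, by gavage from 24 hours after surgery. Dosing lasted for 28 days, and the labels give 391, 392 and 393 mg/kg for Pushen libraries 1, 2 and 3. The labels do not settle whether these consecutive values are truly separate doses. Strain, sex and age were absent from the labels used here. The labels do not say that each library is a separate animal, and p-values therefore reflect library-to-library spread alone.

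Brain capillaries form the blood-brain barrier. Their endothelial cells are sealed to each other by claudin and occludin strands anchored to ZO scaffold proteins, and are held together by VE-cadherin. They carry nutrients in through dedicated transporters, pump drugs out, and keep vesicle traffic low. Mature barrier vessels lose the diaphragm protein PLVAP, which leaky fenestrated vessels keep, and barrier gene expression depends on Wnt and beta-catenin signalling. After a stroke the barrier is known to open and the vessels around the infarct are remodelled.

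All 10 genes were well measured and all passed the expression filter, a mean of at least 0.5 FPKM (fragments scaled to gene length and library depth). Each had between 622 and 12812 reads in a library, and libraries held 57437342 to 75100133 reads. The tissue is labelled brain, although the extraction protocol in the labels speaks of retinas. The neuronal nuclear gene Rbfox3 stood at 42.6 to 64.4 FPKM in every library, and 8 of 9 photoreceptor genes were under the filter. PT library 1 and Pushen library 2 stood apart by choroid plexus transcripts, with Ttr at 528 and 607 FPKM against 2.09 to 146 in the other libraries. Striatal neuron markers summed to 405 FPKM in PT 1 and to 45.2 to 98.4 in the others. Results of the 10 genes in the main fit that changed when these 2 libraries were left out together are given with that value. The gene lists, and the scale of endothelial genes used below, were not run without this pair.

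Promoter sequence was matched for 6 of the 10 genes, Cldn5, Ocln, Tjp1, Mfsd2a, Slc2a1 and Abcb1a, in RefSeq on build GRCm38.p6. The 250 bases before the start site are shown 5′ to 3′ on the gene's strand for 3 genes of different role, a junction gene, an exporter and a lipid transporter. Capitals mark every match, on either strand, to any of these motifs. They are the GC box GGGCGG, the ETS motif CGGAAG, the motif of the Wnt factors TCF and LEF in the forms CTTTGA and also CTTTGT, the CCAAT box, the TATA box TATAAA, the hypoxia core ACGTG and an E-box that contains it, CACGTG. The windows are chr16:18776597-18776846 on the plus strand for Cldn5, chr5:8566841-8567090 on the plus strand for Abcb1a, and chr4:122961189-122961438 on the minus strand for Mfsd2a.
Cldn5: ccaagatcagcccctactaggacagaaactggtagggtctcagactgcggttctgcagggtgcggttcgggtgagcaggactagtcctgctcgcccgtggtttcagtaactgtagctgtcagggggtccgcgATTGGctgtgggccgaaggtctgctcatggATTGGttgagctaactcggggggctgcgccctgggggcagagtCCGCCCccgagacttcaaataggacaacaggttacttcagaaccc
Abcb1a: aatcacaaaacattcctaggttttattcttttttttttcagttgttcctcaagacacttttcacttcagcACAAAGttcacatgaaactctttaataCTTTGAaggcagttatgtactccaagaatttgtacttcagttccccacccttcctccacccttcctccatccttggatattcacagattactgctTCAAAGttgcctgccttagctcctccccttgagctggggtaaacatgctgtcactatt
Mfsd2a: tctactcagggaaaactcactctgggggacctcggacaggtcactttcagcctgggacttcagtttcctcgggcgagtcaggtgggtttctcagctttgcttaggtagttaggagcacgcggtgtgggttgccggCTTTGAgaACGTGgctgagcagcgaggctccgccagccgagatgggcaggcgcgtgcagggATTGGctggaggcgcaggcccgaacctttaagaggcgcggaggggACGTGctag
The 3 windows differ in composition. Cldn5 is 59.6% G or C and holds a GC box and 2 CCAAT matches. Abcb1a is 40.4% G or C, has neither, and holds 3 TCF/LEF matches, 2 of them to CTTTGA. Its RefSeq start lies at -92986 bases from the gene start in the deposited table. Mfsd2a holds 1 CTTTGA match, 1 CCAAT box and 2 hypoxia cores. Over the 6 genes, the GC box was in 4, the CCAAT box in 3, CTTTGA in 2, the hypoxia core in 2, CTTTGT in 1, the ETS motif in 1, the TATA box in 0 and the E-box in 0. Of 32851 RefSeq windows of this length, 32.7% held the GC box, 33.8% the CCAAT box, 13.8% CTTTGA, 16.6% the hypoxia core, 16.5% CTTTGT, 13.6% the ETS motif, 12.4% the TATA box and 6.02% the E-box. The counts are by gene over 7 windows, as Ocln had 2, whereas the shares are by window. The RefSeq start of Tjp1, which held the ETS match, lies at 156452 bases from the deposited gene start. All motif counts are letter matches and say nothing of binding.

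In sham brain the FPKM order, a level per gene length, was led by the glucose transporter Slc2a1 at 29.0 ± 1.75 (SD, n = 3, as for all means here) and Cldn5 at 23.9 ± 1.02. Tjp1, Mfsd2a, Abcb1a, Plvap, Cdh5, Pecam1, Ocln and Vwf followed, the last at 1.49 ± 0.208. Neighbours in that order had separate ranges except Cdh5 and Pecam1. In PT the order was the same except that Abcb1a stood above Mfsd2a, with overlapping ranges, and Vwf above Ocln, with separate ranges. Plvap and Cdh5 overlapped in PT as well. In Pushen, overlaps joined Slc2a1 with Cldn5, Abcb1a with Mfsd2a, Cdh5 with Plvap, Pecam1 with Vwf, and Vwf with Ocln.

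**Figure D1:**
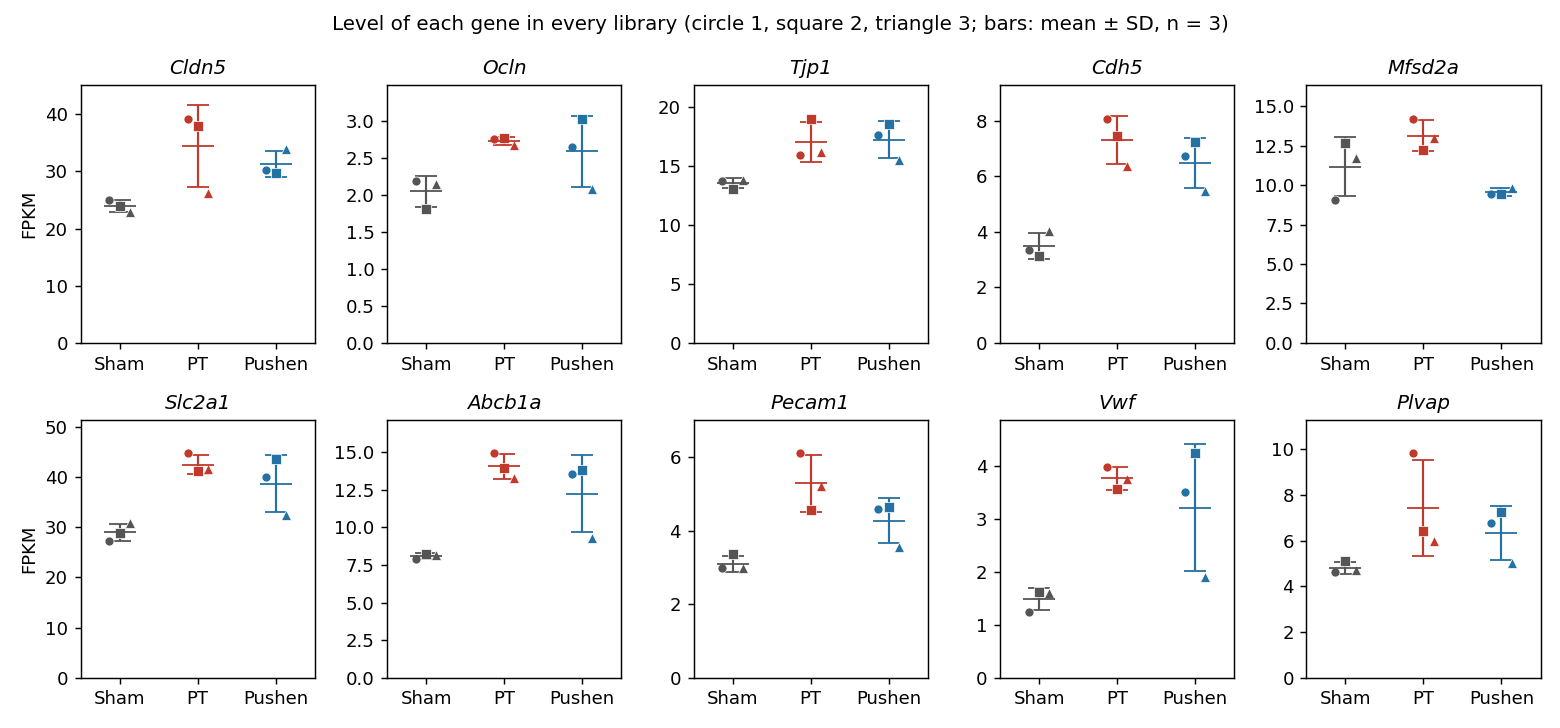
Level of each of the 10 genes in FPKM (vertical axis, from 0) in every Sham, PT and Pushen library, with circles, squares and triangles for libraries 1, 2 and 3 and bars for mean ± SD of 3 libraries. PT libraries sit above all Sham libraries for every gene but Mfsd2a, and Pushen library 3 (triangle) is the lowest Pushen point for 8 genes.

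The first comparison asks how the barrier genes stand around a 28-day-old infarct. Of the 10 genes, 6 rose in PT against Sham and 0 fell by edgeR's quasi-likelihood test at a Benjamini-Hochberg adjusted p under 0.05 over 16740 genes. Over all tested genes 19.1% rose and 11.8% fell. The genes that rose were Vwf, Cdh5, Abcb1a, Pecam1, Slc2a1 and Cldn5, and the other 4 had values above 0. The median log2 fold change of the 10 was 0.53, beside 0.00 over all tested genes. For 9 genes every PT library was above every Sham library, both in FPKM and in log2 CPM (counts scaled to library size). In log2 CPM 26.2% of all tested genes had that pattern. Other cell types moved in the same comparison. Neuron markers fell in 5 of 6 (median log2 fold change -0.59), while fibroblast markers rose in 6 of 6 (4.13), astrocyte markers in 5 of 6 (1.05), ependymal markers in 5 of 5 (2.60) and oligodendrocyte markers in 5 of 7 (0.84). Their part in the values of the 10 genes was not tested. In bulk tissue, more cells of a type and more RNA per cell cannot be told apart.

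Among the junction genes the adhesion component rose most. Cdh5, VE-cadherin of the adherens junction, was at 3.34, 3.13 and 4.03 FPKM in Sham libraries 1 to 3, 8.07, 7.46 and 6.35 in PT and 6.71, 7.23 and 5.46 in Pushen. Every infarct library was above every Sham library. The PT change was 1.00 ± 0.14 (log2, SE; adjusted p = 0.00135), and the call held without any single library, with values of 0.92 to 1.11. Cldn5, the main claudin of brain capillaries, was at 24.9, 23.9 and 22.9 FPKM in Sham, 39.2, 37.9 and 26.3 in PT and 30.3, 29.7 and 33.9 in Pushen. PT 1 and PT 2 were high, whereas PT 3 lay near the Sham range and below every Pushen library. Its change was 0.47 ± 0.14 (adjusted p = 0.0356). This call was lost without any 1 of Sham 1, Sham 2, Sham 3, PT 1, PT 2 or Pushen 1 (adjusted p = 0.0697, 0.0955, 0.102, 0.113, 0.105 and 0.0528) and with PT 1 and Pushen 2 both left out (0.37, adjusted p = 0.135).

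Ocln and Tjp1, the strand protein occludin and the scaffold ZO-1, had smaller differences. Ocln was at 2.19, 1.81 and 2.15 FPKM in Sham, 2.75, 2.77 and 2.67 in PT and 2.65, 3.03 and 2.08 in Pushen. Its PT libraries lay close together above all Sham libraries, and Pushen 3 lay within the Sham range. The PT difference was 0.35 ± 0.15 (log2, SE), with an edgeR adjusted p of 0.0968. Tjp1 was at 13.7, 13.1 and 13.9 FPKM in Sham, 15.9, 19.0 and 16.2 in PT and 17.6, 18.6 and 15.6 in Pushen. Every infarct library was above Sham by a small margin. The difference of 0.27 ± 0.09 had an edgeR adjusted p of 0.0523. Tjp1 passed with a filter of 1 FPKM, with upper quartile or library size scaling, with DESeq2 and with limma (adjusted p = 0.0291 to 0.0429). Without Pushen 3, which enters the PT comparison through the shared spread, both passed (adjusted p = 0.0496 for Ocln and 0.041 for Tjp1), as did Tjp1 without PT 1 (0.048).

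Of the 3 transporters, 2 passed the test. Slc2a1, the glucose transporter GLUT1, was at 27.3, 28.9 and 30.8 FPKM in Sham, 44.7, 41.1 and 41.6 in PT and 40.0, 43.7 and 32.4 in Pushen. All infarct libraries exceeded Sham, Pushen 3 by the least. The PT change was 0.50 ± 0.10 (log2, SE; edgeR adjusted p = 0.00826). Abcb1a, the P-glycoprotein drug pump, was at 7.90, 8.26 and 8.15 FPKM in Sham, 14.93, 13.95 and 13.30 in PT and 13.6, 13.9 and 9.27 in Pushen. The Sham values were tight and all PT values far above them. Its change was 0.74 ± 0.13 (adjusted p = 0.00431). Its close paralog Abcb1b, with which it could share reads, stood at 0.68 to 1.48 FPKM over all libraries. Mfsd2a, the lysolipid transporter that also holds vesicle traffic low, was at 9.09, 12.7 and 11.8 FPKM in Sham, 14.22, 12.24 and 12.96 in PT and 9.41, 9.43 and 9.85 in Pushen. Sham and PT overlapped. The PT difference was 0.18 ± 0.12 (adjusted p = 0.285), with an interval of 2 SE from -0.06 to 0.42.

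Of the general endothelial genes, Vwf had the largest log2 value among the 10 in PT against Sham. Vwf, von Willebrand factor, a clotting glycoprotein stored by endothelium and platelets, was at 1.25, 1.62 and 1.60 FPKM in Sham, 3.99, 3.56 and 3.75 in PT and 3.50, 4.24 and 1.90 in Pushen. The 3 PT libraries lay close together, while Pushen 3 lay just above Sham. The PT change was 1.28 ± 0.25 (log2, SE; edgeR adjusted p = 0.00527). Pecam1, the junctional adhesion protein CD31, was at 2.98, 3.36 and 2.98 FPKM in Sham, 6.11, 4.56 and 5.22 in PT and 4.6, 4.66 and 3.56 in Pushen. All infarct libraries were above Sham. The PT change was 0.71 ± 0.14 (adjusted p = 0.00532). Slc2a1, Abcb1a, Pecam1 and Vwf kept their PT calls without any single library.

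Both Vwf and Pecam1 are also made by blood cells. Platelet marker genes, 7 of 8 under the filter and 0 of 8 at 0 in every library, summed to 1.14 to 1.59 FPKM in Sham, 2.17 to 3.26 in PT and 2.04 to 2.45 in Pushen. Pf4, the marker with the most RNA, was at 0.06 to 0.62, 1.11 to 1.52 and 0.85 to 1.31 FPKM in the same groups. The 10 leukocyte and microglia markers summed to 23.7 to 35.8 FPKM in Sham, 63.4 to 88.7 in PT and 53.6 to 73.2 in Pushen. Of these markers 6 rose in PT and 0 were at 0 in every library. Their part in the Vwf and Pecam1 values was not tested.

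Plvap, the diaphragm protein of fenestrated vessels such as those of the choroid plexus, was at 4.64, 5.12 and 4.70 FPKM in Sham, 9.83, 6.42 and 6.0 in PT and 6.76, 7.26 and 5.02 in Pushen. PT 1 alone was far above the rest, and Pushen 3 lay within the Sham range. The PT difference was 0.57 ± 0.20 (log2, SE; edgeR adjusted p = 0.0622), and 0.31 without PT 1 (adjusted p = 0.188). It passed with DESeq2 (adjusted p = 0.0335), and in edgeR without PT 3 (0.0383) or without Pushen 3 (0.0489). The 10 choroid plexus markers, 0 of them at 0 in every library, summed to 3.3 to 18.9 FPKM in Sham, to 555, 23.1 and 50.1 in PT 1 to 3, and to 29.9, 636 and 153 in Pushen 1 to 3. With PT 1 and Pushen 2 both left out the Plvap difference was 0.31 (adjusted p = 0.168). Gtpbp3, on the opposite strand, overlaps Plvap and had 4.3 to 6.56 FPKM. Strand use in the authors' counting is not given in the sources used here, so the Plvap values are uncertain.

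Pushen was then compared with PT, the question of whether the drug shifted these genes. Of the 10 genes 0 passed edgeR's test, as did 0% of all 16740 genes in either direction. At an unadjusted p under 0.05 there were 1086 genes (6.49%), 2 of them among the 10, and DESeq2 called 48 genes, 0 of them among the 10. The values of 9 genes were below 0, as were those of 51.7% of all tested genes. The median log2 difference was -0.20, beside -0.01 over all tested genes.

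Mfsd2a had the lowest value, -0.47 ± 0.12 (log2, SE; unadjusted p = 0.00376, edgeR adjusted p = 0.707), and is the member with separate groups. Every Pushen library, at 9.41 to 9.85 FPKM, was below every PT library, at 12.2 to 14.2 FPKM. The groups were separate in log2 CPM too, the measure in which 5.97% of all tested genes had Pushen libraries wholly below PT. Pecam1 followed at -0.32 ± 0.14 (unadjusted p = 0.0429, adjusted p = 0.707), with groups that overlapped. The other 8 lay between -0.24 for Vwf and 0.01 for Tjp1. For Cldn5 the difference was -0.15, with an interval of 2 SE from -0.43 to 0.14, and for Cdh5 -0.18, from -0.46 to 0.10. Both intervals include 0, and both widths leave room for differences in either direction.

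Pushen against Sham shares the Pushen libraries with the previous comparison and the Sham libraries with the first. Here 3 genes rose and 0 fell, beside 13.5% and 2.73% of all tested genes. Cdh5 rose by 0.82 ± 0.14 (log2, SE; edgeR adjusted p = 0.00507), Vwf by 1.04 ± 0.24 (0.0201) and Abcb1a by 0.53 ± 0.13 (0.0289). The median of the 10 genes was 0.34, beside -0.01 over all tested genes. In log2 CPM every Pushen library exceeded every Sham library for 7 genes, Abcb1a, Cdh5, Cldn5, Pecam1, Slc2a1, Tjp1 and Vwf. That pattern was seen in 23.1% of tested genes. Slc2a1 had 0.35 ± 0.10 (adjusted p = 0.052), Tjp1 0.28 ± 0.09 (0.0721), Pecam1 0.39 ± 0.14 (0.0838) and Cldn5 0.32 ± 0.14 (0.157). Ocln and Plvap had 0.26 and 0.33. Mfsd2a was the gene below 0, at -0.29 ± 0.12 (adjusted p = 0.136), with Pushen values inside the Sham range in FPKM. In log2 CPM relative to the sham mean, Pushen 1 and 2 were at -0.31 and -0.30, below the lowest Sham library at -0.26. Pushen 3, at -0.21, was inside the Sham range.

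The Pushen counts turned on single libraries. Without Pushen 3 the test called 6 of the 10 genes, adding Slc2a1, Tjp1 and Pecam1 (adjusted p = 0.00645, 0.0374 and 0.0298). Calls over all tested genes also went from 2718 to 3329 in that fit. Only Cdh5 remained called without Sham 2, Sham 3, Pushen 1 or Pushen 2, or with PT 1 and Pushen 2 both left out. Calls over all genes were then 1538, 1900, 1568, 1594 and 2049, in that order. Cdh5 and Mfsd2a were the 2 called without Sham 1, beside 1660 over all genes. Vwf lost its call without any 1 of Sham 1, Sham 2, Sham 3, Pushen 1 or Pushen 2 (adjusted p = 0.0811, 0.059, 0.052, 0.0701 and 0.0682). So did Abcb1a (0.0884, 0.0874, 0.0798, 0.109 and 0.106). With PT 1 and Pushen 2 both left out, Vwf had 0.79 (adjusted p = 0.0742) and Abcb1a 0.43 (0.0967). Mfsd2a fell without Sham 1, by 0.41 (adjusted p = 0.0395).

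Pushen 3 was the lowest of the 6 infarct libraries for 8 of the 10 genes, beside 21.2% of all tested genes. Cldn5 was lowest in PT 3 and Mfsd2a in Pushen 1. Taken as the mean over the 10 genes of log2 CPM (counts scaled to library size) above the sham mean, Pushen 3 stood at 0.17, Pushen 1 and 2 at 0.45 and 0.55, and PT 1 to 3 at 0.73, 0.57 and 0.51. Within Pushen 3 the genes ranged from -0.21 for Mfsd2a to 0.60 for Cdh5. The markers of some other cell types were also low there, as leukocyte markers summed to 53.6 FPKM, astrocyte markers to 427 and pericyte markers to 80.6 in Pushen 3, the lowest of the 6 infarct libraries. Neuron markers summed to 831 FPKM there, the highest of the 6. Oligodendrocyte markers, at 696 FPKM, and choroid plexus markers, at 153 FPKM, lay inside the range of the other infarct libraries. The part of tissue make-up in the Pushen 3 values was not tested.

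**Figure D2:**
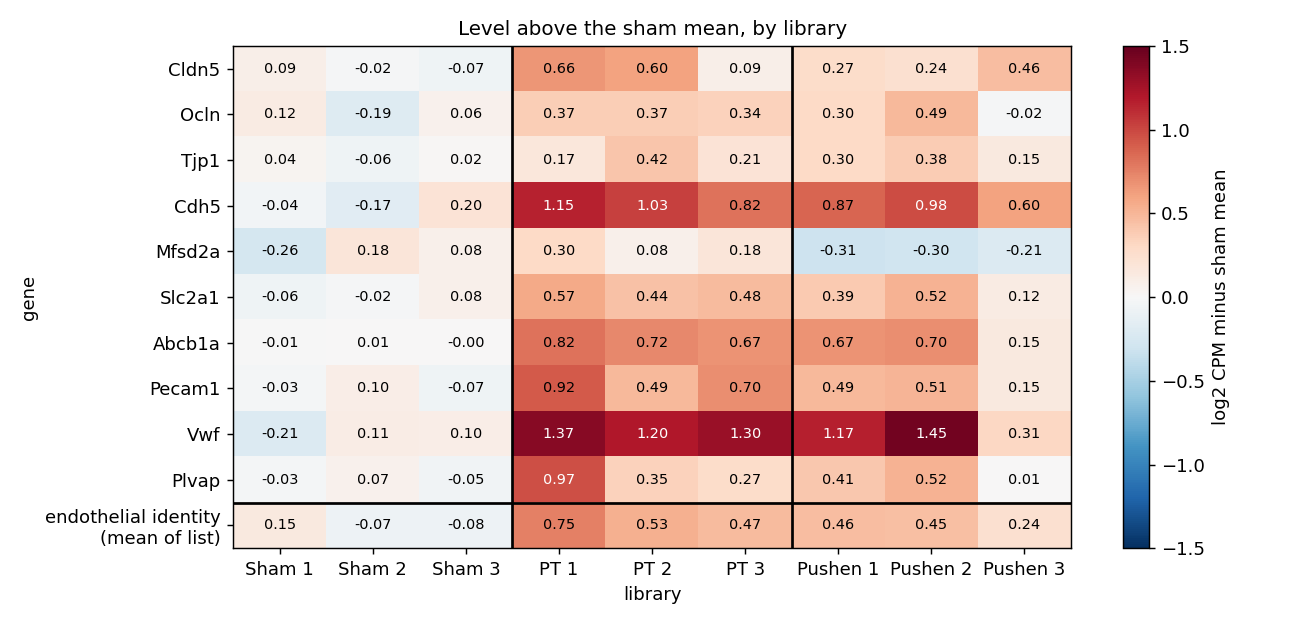
Level of each gene in each library as log2 CPM minus the sham mean (colour scale and printed values), with the mean of the endothelial identity list in the bottom row. Cdh5 and Vwf have the highest values in 5 of the 6 infarct libraries, Mfsd2a is below 0 in all 3 Pushen libraries, and Pushen 3 is paler than the other Pushen libraries except for Cldn5.

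To set the 10 genes against endothelial RNA in general, a list of 16 tested endothelial identity genes outside the 10, such as the angiopoietin receptor gene Tie1, was used as a scale. The mean log2 level of that list, relative to sham, was 0.15, -0.07 and -0.08 in Sham 1 to 3, 0.75, 0.53 and 0.47 in PT and 0.46, 0.45 and 0.24 in Pushen. It was higher in every infarct library than in every Sham library. Rescaling each library to it moved the median of all genes by -0.59 (PT to Sham), 0.19 (Pushen to PT) and -0.40 (Pushen to Sham). Any RNA of the 10 genes from other cell types was rescaled as well, and its part was not tested.

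On that scale 2 of the 10 genes were higher in PT than Sham and 0 lower, beside 9.01% and 56.6% of all tested genes. They were Cdh5, at 0.40 ± 0.15 (log2, SE; edgeR adjusted p = 0.0349), and Vwf, at 0.69 ± 0.23 (0.0218). The values of Cldn5 and Slc2a1, which rose on the first scale, turned to -0.12 and -0.09, and those of Tjp1, Ocln and Plvap to -0.30, -0.22 and -0.05, none past the threshold. Abcb1a and Pecam1 had 0.15 and 0.12. Mfsd2a had -0.42 ± 0.18 (adjusted p = 0.0607), and the median of the 10 was -0.07 against -0.59 over all genes. The Cdh5 call was lost without any 1 of Sham 1, Sham 2, PT 1 or PT 2 (adjusted p = 0.102, 0.121, 0.0542 and 0.0999), and the Vwf call without Sham 1 or PT 3 (0.0767 and 0.0558). Without Sham 1 the 1 gene called was Mfsd2a, which fell by 0.60 (adjusted p = 0.00802). The share of all tested genes that fell in that fit was not counted, and with all libraries it was 56.6%.

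Relative to the same list, Pushen against Sham had 2 genes higher and 1 lower, beside 8.64% and 33.8% of all tested genes. Cdh5 stood at 0.42 ± 0.15 (edgeR adjusted p = 0.0451), Vwf at 0.62 ± 0.23 (0.0493) and Mfsd2a at -0.68 ± 0.18 (0.0224). The Cdh5 call was lost without any 1 of Sham 1, Sham 2, PT 2, PT 3, Pushen 1 or Pushen 2 (adjusted p = 0.108, 0.15, 0.062, 0.0526, 0.114 and 0.148). The Vwf call was lost without any 1 library except Pushen 3, with adjusted p up to 0.201. The Mfsd2a call was lost without any 1 of Sham 2, Sham 3, Pushen 1 or Pushen 2 (adjusted p = 0.0846, 0.0726, 0.0931 and 0.0888). Between 0 and 3 of the 10 genes were called when single libraries were left out. The share of all tested genes called was not counted in those fits, so these counts have no background beside them. Pushen against PT again had 0% of genes called, with Mfsd2a at -0.26 ± 0.18 and the others between -0.12 and 0.20. Leaving out libraries on this scale was chosen after seeing the data.

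**Figure D3:**
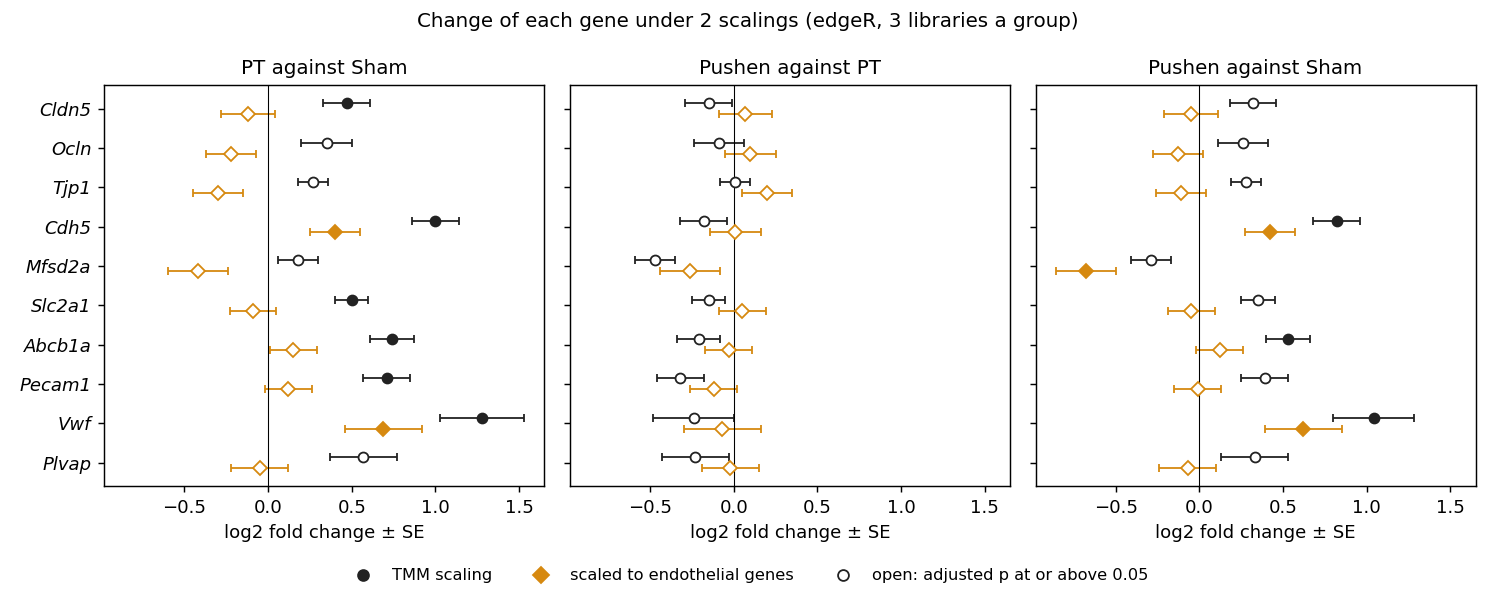
Log2 fold change ± SE (horizontal axis) of each of the 10 genes in the 3 comparisons, as circles on the standard scale and as diamonds relative to endothelial identity genes, filled where the edgeR adjusted p is under 0.05. In PT against Sham all 10 circles lie above 0, whereas 6 diamonds lie below 0 and those of Cdh5 and Vwf are filled above it.

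Lists of related genes were counted in the same fit, in bulk tissue. The part of each cell type in the values of the listed genes was not tested. Of 20 other tight and adherens junction genes 16 were tested, 10 rose and 1 fell, with a median log2 fold change of 0.43. Lsr, the angulin of tricellular junctions, rose by 1.10 ± 0.16 (edgeR adjusted p = 0.00171), and F11r, the adhesion molecule JAM-A, by 1.41 ± 0.21 (0.00172). Ctnna1, alpha-catenin, rose by 0.66 ± 0.11, and Afdn, the nectin-binding scaffold afadin, fell by 0.64 on the log2 scale (adjusted p = 0.0366), named here after its value was seen. In Pushen against Sham 6 of the 16 rose and 0 fell.

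Of 18 other barrier transporters and receptors, all tested, 9 rose and 1 fell in PT, with a median of 0.43. Slc16a1, the monocarboxylate carrier MCT1, rose by 1.05 ± 0.15 (edgeR adjusted p = 0.00124), and Slc22a8, the organic anion transporter OAT3, by 0.67 ± 0.13 (0.00497). Tfrc, the transferrin receptor that takes up iron, fell by 0.97 on the log2 scale (adjusted p = 0.00273), from 19.7 to 23.2 FPKM in Sham to 9.62 to 13.5 in PT. Tfrc was at 10.6 to 14.4 FPKM in Pushen, lower than Sham by edgeR (-0.83 ± 0.16, adjusted p = 0.00844). Against Sham, 6 of the 18 rose and 1 fell in Pushen.

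Endothelial identity genes rose in 8 of 16 tested (of 17 listed; median 0.59), and fell in 0. Tie1 rose by 0.85 ± 0.13, Mmrn2, an endothelial matrix protein, by 0.96 ± 0.21, Icam2 by 1.05 ± 0.27 and Rasip1, a vessel lumen factor, by 0.57 ± 0.15. Activated, venous, tip-cell and caveolar endothelial genes rose in 7 of 12 tested (of 15 listed; median 1.03). Those of smallest p included the cholesterol hydroxylase gene Ch25h at 4.12 ± 0.46 and the leukocyte adhesion genes Icam1 at 3.31 ± 0.42 and Vcam1 at 1.34 ± 0.17. These 3 are also expressed outside endothelium. Cavin1, a caveolar coat gene, rose by 1.26 ± 0.17. In Pushen against Sham 2 of the 16 identity genes and 9 of the 12 activated genes rose, and 0 fell in either list.

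Of 18 Wnt and beta-catenin barrier genes 7 rose in PT and 0 fell, with a median of 0.36. The co-receptor Lrp5 rose by 1.58 ± 0.20 (edgeR adjusted p = 0.000916), the receptor Fzd4 by 0.90 ± 0.23 (0.0188), the Wnt target Tnfrsf19 by 0.43 ± 0.08 (0.00406) and the transcription factor Foxf2 by 0.47 ± 0.13 (0.0215). In Pushen against Sham 2 rose. Mural cell genes rose too, with 5 of 10 pericyte markers (Pdgfrb by 1.00 ± 0.16) and 4 of 5 tested smooth muscle markers (Acta2 by 1.40 ± 0.20). Against Sham, 3 pericyte and 2 smooth muscle markers rose with Pushen. In Pushen against PT 0 genes of these lists passed. The smallest p among them belonged to Foxf2 at -0.45 ± 0.13 and the claudin Cldn12 at 0.65 ± 0.18 (unadjusted p = 0.00598 and 0.00671, edgeR adjusted p = 0.707 for both).

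**Figure D4:**
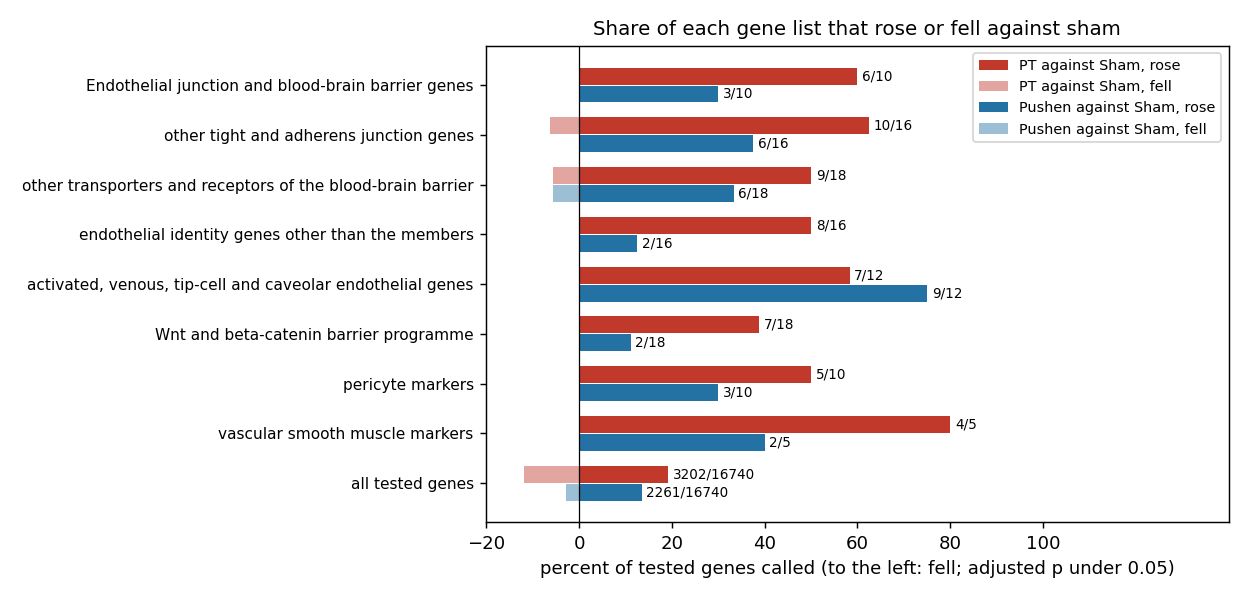
Percent of the tested genes of each list that rose (right of 0) or fell (left of 0) against Sham by edgeR at an adjusted p under 0.05, in PT and in Pushen, with the number that rose over the number tested. In PT 6 of the 10 junction and barrier genes rose, in Pushen 3, beside 19.1% and 13.5% of all tested genes.

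Profiles over the 9 libraries were compared by the root-mean-square (RMS) difference of centred log2 CPM, over 13546 protein-coding genes, for the 6 genes that rose in PT. The nearest genes were Nrbp2, Aph1a and Imp3 to Cldn5 (0.070 to 0.075), H2bc4, Clu and Fadd to Cdh5 (0.052 to 0.062) and Chsy1, Sdc3 and Eaf1 to Slc2a1 (0.053 to 0.057). They were Rab5c, Abcg1 and Dock1 to Abcb1a (0.045 to 0.056), Pwwp2b, Tmem268 and Rab43 to Pecam1 (0.066 to 0.086) and Scpep1, Tifa and Ptpn14 to Vwf (0.117 to 0.134). Among the 10 genes themselves, Slc2a1 was nearest to Ocln (0.109) and Abcb1a to Pecam1 (0.114), while Vwf was 0.261 from its nearest member, Cdh5. No nearest gene was another of the 10. The median distance over all genes compared was 0.333 for Slc2a1, 0.420 for Abcb1a and 0.671 for Vwf. The likeness is only a description of profiles that all come from the same 9 libraries in 3 groups.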

How the data were processed

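RNA from peri-infarct brain was sequenced in 9 libraries (Illumina TruSeq RNA kit, per the labels). Raw counts of reads for each gene were deposited by the authors, and neither the counter nor its strand setting is stated in the sources used here. FPKM, scaled to gene length and depth by the authors, stands beside them. Bowtie 0.12.2 and build mm8 are named in the submitters' processing notes. The deposited coordinates are instead those of GRCm38: start and end equal GENCODE M21 for 51957 of 55141 shared identifiers (94.2%) and for 9 of the 10 genes described (not Tjp1). Library names in the header placed all 18 value columns.

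Counts of the 16740 genes averaging 0.5 FPKM or more were TMM-scaled (trimmed mean of M values) and fitted with edgeR 4.0.16 in R 4.3.3, all 3 groups together. The quasi-likelihood test was adjusted by Benjamini-Hochberg over all tested genes, and an adjusted p under 0.05 was called. The SE is the log2 fold change over the root of the F statistic. A further fit scaled libraries to endothelial identity genes. Alternatives used other filters, scalings, DESeq2 1.42.0, limma 3.58.1, the 2 groups alone, a replicate block and libraries left out.

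The 10 genes, the gene lists and the tests were chosen with earlier results of these data known. The text names all 10 genes, up to 4 genes of smallest p per list, and the 3 genes of nearest profile for each of the 10 that was called in PT against Sham. Genes named outside this rule are said to be, and some genes that it takes are not reported here.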

Additional observations from a re-analysis of the deposited data

How the results depend on the processing

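Over the 10 genes and all alternatives, 190 log2 fold changes in PT against Sham kept their direction and side of the threshold, 12 passed newly, 12 no longer passed and 6 reversed. In Pushen against PT 207 were kept and 13 reversed, and in Pushen against Sham 181 were kept, 18 passed newly, 15 no longer passed and 6 reversed. Scaling to endothelial identity genes gave all 6 reversals in PT against Sham (Cldn5 -0.12, Ocln -0.22, Tjp1 -0.30, Mfsd2a -0.42, Slc2a1 -0.09, Plvap -0.05) and in Pushen against Sham (Cldn5 -0.05, Ocln -0.13, Tjp1 -0.11, Slc2a1 -0.05, Pecam1 -0.01, Plvap -0.07). It gave 10975 calls over all genes in PT against Sham, with 2 of the 10, and 7112 in Pushen against Sham. Its calls among the 10 genes ranged from 1 to 2 and from 0 to 3 when single libraries were left out. Calls over all genes were not counted in those fits. By construction this scaling moves all genes against endothelial RNA.

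In Pushen against PT it reversed Cldn5 (0.07), Ocln (0.10), Cdh5 (0.01) and Slc2a1 (0.05). Tjp1 reversed with upper quartile scaling (-0.0021) and without both PT 1 and Pushen 2 (-0.09). Single libraries left out gave -0.22 to 0.04 for Ocln, -0.05 to 0.09 for Tjp1, -0.49 to 0.02 for Vwf and -0.36 to 0.02 for Plvap. The calls over all genes were 48 with DESeq2, 1 with the 2 groups alone, 2 without both PT 1 and Pushen 2, and 0 to 5 without single libraries. The cause was not tested.

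Leaving out single libraries gave 3198 to 5799 calls over all genes in PT against Sham and 1538 to 3736 in Pushen against Sham, with 1 to 6 of the 10 genes in the latter. In PT against Sham 5 to 9 of the 10 genes were called without single libraries and 5 to 8 under the other alternatives except the endothelial scaling. Those other alternatives called 3465 to 6256 over all genes. In Pushen against Sham, 5 of the 10 were called by library size scaling, 6 by DESeq2, 5 by limma with either pseudocount (0.1 or 1 FPKM), and 1 without both PT 1 and Pushen 2. These fits called 2862, 3905, 2696 (0.1 FPKM), 2544 (1 FPKM) and 2049 over all genes, beside 2718 in the main fit. The Cldn5 call in PT against Sham was lost with no filter (adjusted p = 0.0707) and with the 2 groups alone (0.0591), and that of Abcb1a in Pushen against Sham likewise (0.0518 and 0.0515). Adding the replicate number as a block gave 4266, 0 and 2108 calls over all genes and 5, 0 and 3 among the 10 in the 3 comparisons, losing Cldn5 (adjusted p = 0.0641). Same-numbered libraries had correlations of -0.228 to 0.073 over 9 pairs, and 2 of 18 best matches shared a number, so the numbers were not taken as pairs. With 3 libraries a group, genes with few reads and changes near the SE lie below what the spread can resolve.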
